A study of Mus musculus with 16 samples.

Results

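Lipoprotein lipase and the genes that fold, carry and inhibit it were followed through the open chromatin of 8 mouse tissues. The 5 genes, Lpl, Gpihbp1, Lmf1, Angptl4 and Angptl8, were taken by name from the 21938 protein-coding genes of GENCODE vM21 on the mouse assembly GRCm38, by their known roles and not by a threshold on any measured value. Lipoprotein lipase sits on the wall of capillaries and cuts triglycerides out of circulating lipoproteins, which lets muscle burn and fat tissue store the released fatty acids. The enzyme is folded in the endoplasmic reticulum by LMF1 and is moved across the endothelial cell by GPIHBP1. The secreted proteins ANGPTL4, known to be induced by fasting, and ANGPTL8, known to be induced by feeding, restrain it and so steer fat between tissues.

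ATAC-seq, which marks open chromatin by where a transposase can cut, was performed on 8 organs of male C57BL/6 mice, namely both adipose depots (brown and white), heart, kidney, liver, lung, muscle and spleen. The fed animals ate standard chow freely and the fasting animals had food withheld for a full day, with no transgene or drug in either group. Tissue from several animals of a group was pooled into 1 library per tissue and state, which gave 16 libraries without replicates. Tissues of 1 state came from the same animals, so a test across tissues speaks of these pools and not of further mice.

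Each library was a list of between 298996 and 299529 peak summits, which is a fixed list length rather than a measure of depth. The background that the lists imply ranged from 2.80 tags at a summit in fed liver to 12.8 in fed brown adipose, and it was 10.02 in fed against 5.87 in fasting white adipose. The marker genes of all 8 labelled tissues had their highest mean promoter level in their own tissue, at 68.3 to 92.6. White adipose was the closest call, since its list averaged 68.3 there and 62.7 in brown adipose. Of that list, Lep and Retn were higher in brown than in white adipose in each state. Hoxc9 was 0 in brown adipose and 12.3 and 40.5 in white, but 86.7 in fed kidney. Genes of the epididymis, an organ that touches the gonadal fat pad, were listed in fed white adipose for 4 of 5 markers with a mean level of 56.1. In fasting white adipose 1 of the 5 was listed, with a mean of 11.5, and in the other 14 libraries the mean lay between 0 and 29.4, so every white adipose comparison carries this difference and its part was not tested.

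The level of a promoter is given below as a percentile. It is the rank, among all summits of the same library, of the strongest summit within 3000 bp of any annotated start of the gene, and it is 0 where no summit was listed. A level of 97 therefore means that the summit had a smaller p-value than 97% of the library's summits. The level of a locus is the mean percentile over all its accessible regions, where a region is a stretch of overlapping peaks found in at least 2 libraries and a locus is the gene body with 20000 bp on either side. The 5 loci held 150 of the 429159 regions of the series. Percentiles compare rank within a library, so they do not measure an absolute amount of open chromatin. In bulk tissue, fewer cells of a type and less accessibility per cell cannot be told apart.

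**Figure D1:**
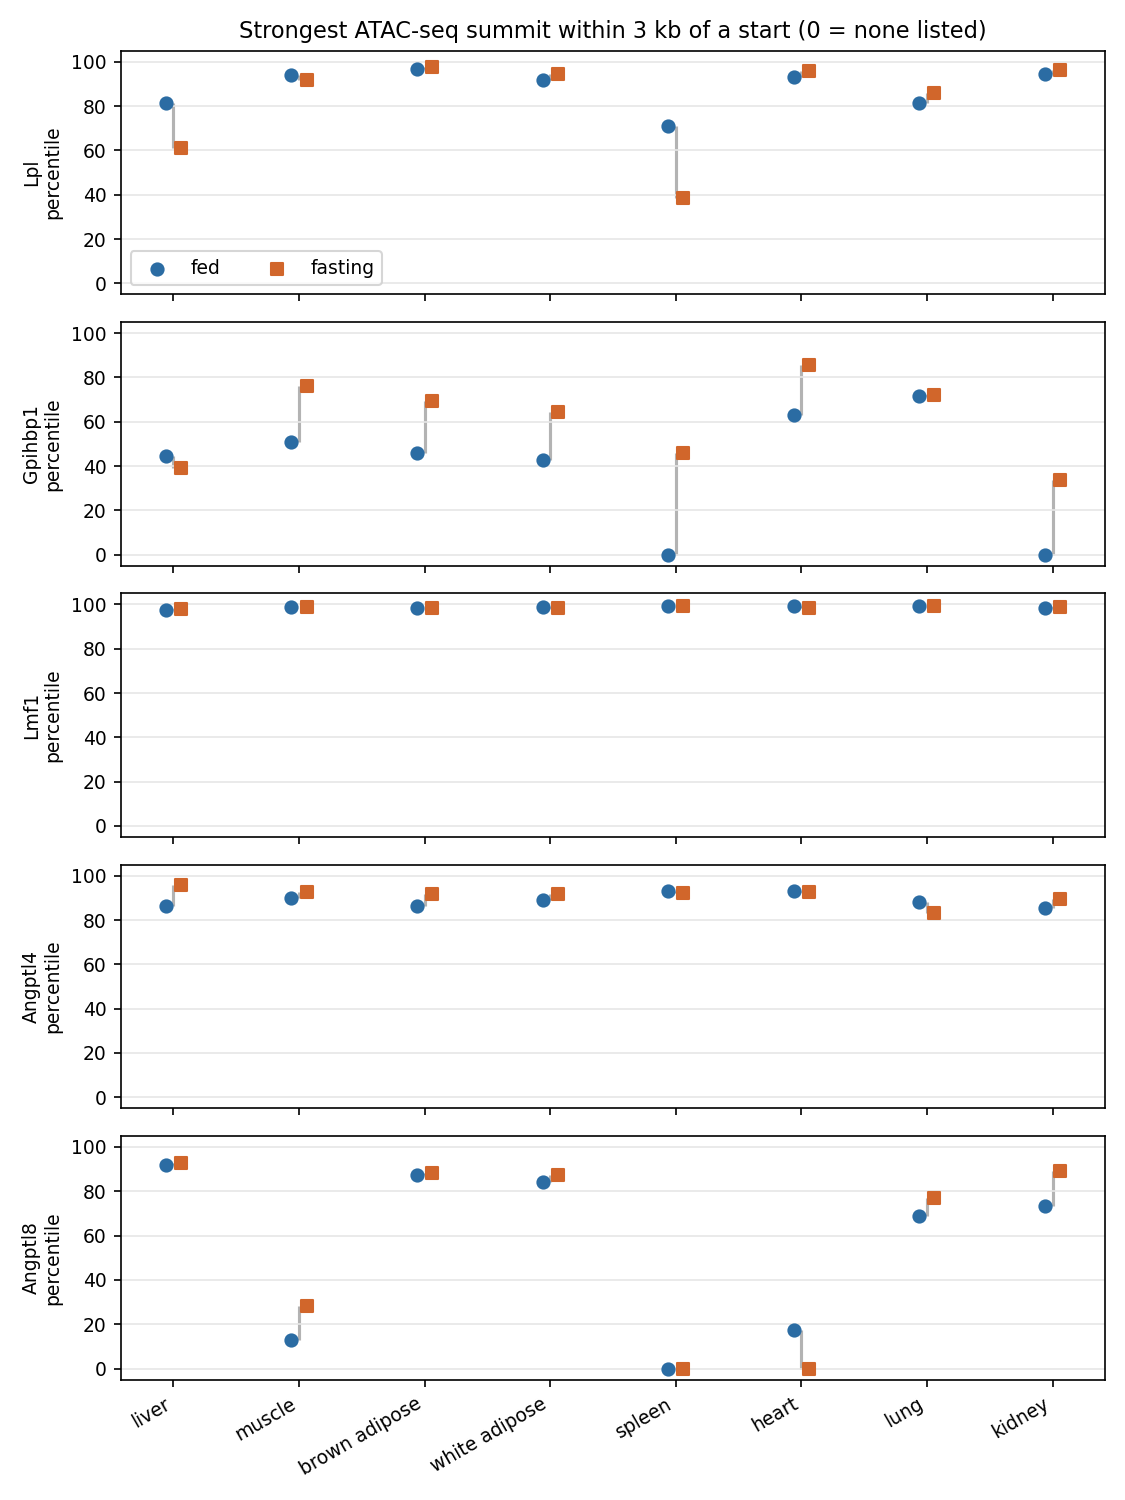
Promoter level of the 5 genes in each tissue, as the percentile of the strongest summit within 3 kb of a start (y axis, 0 to 100, 0 for none listed), with fed libraries as circles and fasting libraries as squares. Lmf1 lay between 97.6 and 99.3 in all 16 libraries and Angptl4 between 82.9 and 95.8, whereas Gpihbp1 and Angptl8 reached 0 in some.

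Lpl, the gene of the enzyme itself, occupies chr8:68880491-68907448 on the plus strand. Its promoter was listed in all 16 libraries. The level was 97.0 in fed and 97.6 in fasting brown adipose, 94.6 and 96.5 in kidney, 93.1 and 95.9 in heart, and 91.8 and 94.4 in white adipose. Muscle stood at 94.0 and 92.0. Lung was lower, at 81.4 fed and 85.8 fasting, as were liver, at 81.5 and 61.2, and spleen, at 70.8 and 38.6. From brown adipose down to muscle the tissue means ran from 97.3 to 93.0, and neighbours in that order lay closer together than the fed and fasting values of one tissue often did. Spleen was lowest in both states, liver was next to lowest in fasting, and fed liver and fed lung were level.

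Muscle, heart and both fat depots, the tissues known to make most of the enzyme, were set against the other 4 tissues. The promoter level averaged 94.5 in the first group and 76.3 in the second, a difference of 18.2 points (one-sided exact permutation test over tissues, p = 0.0571, where the smallest possible p is 0.0143). Kidney, which ranked second of the 8, was what separated this from a clean split. Across all genes 7.92% passed the same test at p below 0.05, and Lpl did not. The locus level told the tissues apart more sharply. It was 26.7 in fed and 28.4 in fasting brown adipose, 24.0 and 29.3 in heart, and 20.7 and 23.2 in muscle. White adipose had 15.1 and 24.4. In the other tissues the locus level was 9.89 and 11.6 in liver, 9.85 and 7.73 in kidney, 5.10 and 6.38 in lung, and 3.06 and 1.62 in spleen. The groups did not overlap, with means of 24.0 against 6.90 and a difference of 17.1 points (exact permutation test, p = 0.0143, 0.703 after Benjamini-Hochberg adjustment over 19347 genes), while 5.06% of all loci passed. The number of summits in the locus followed the same tissues, from 65 in fed brown adipose and 54 in fasting heart to 5 in fed and 3 in fasting spleen.

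**Figure D2:**
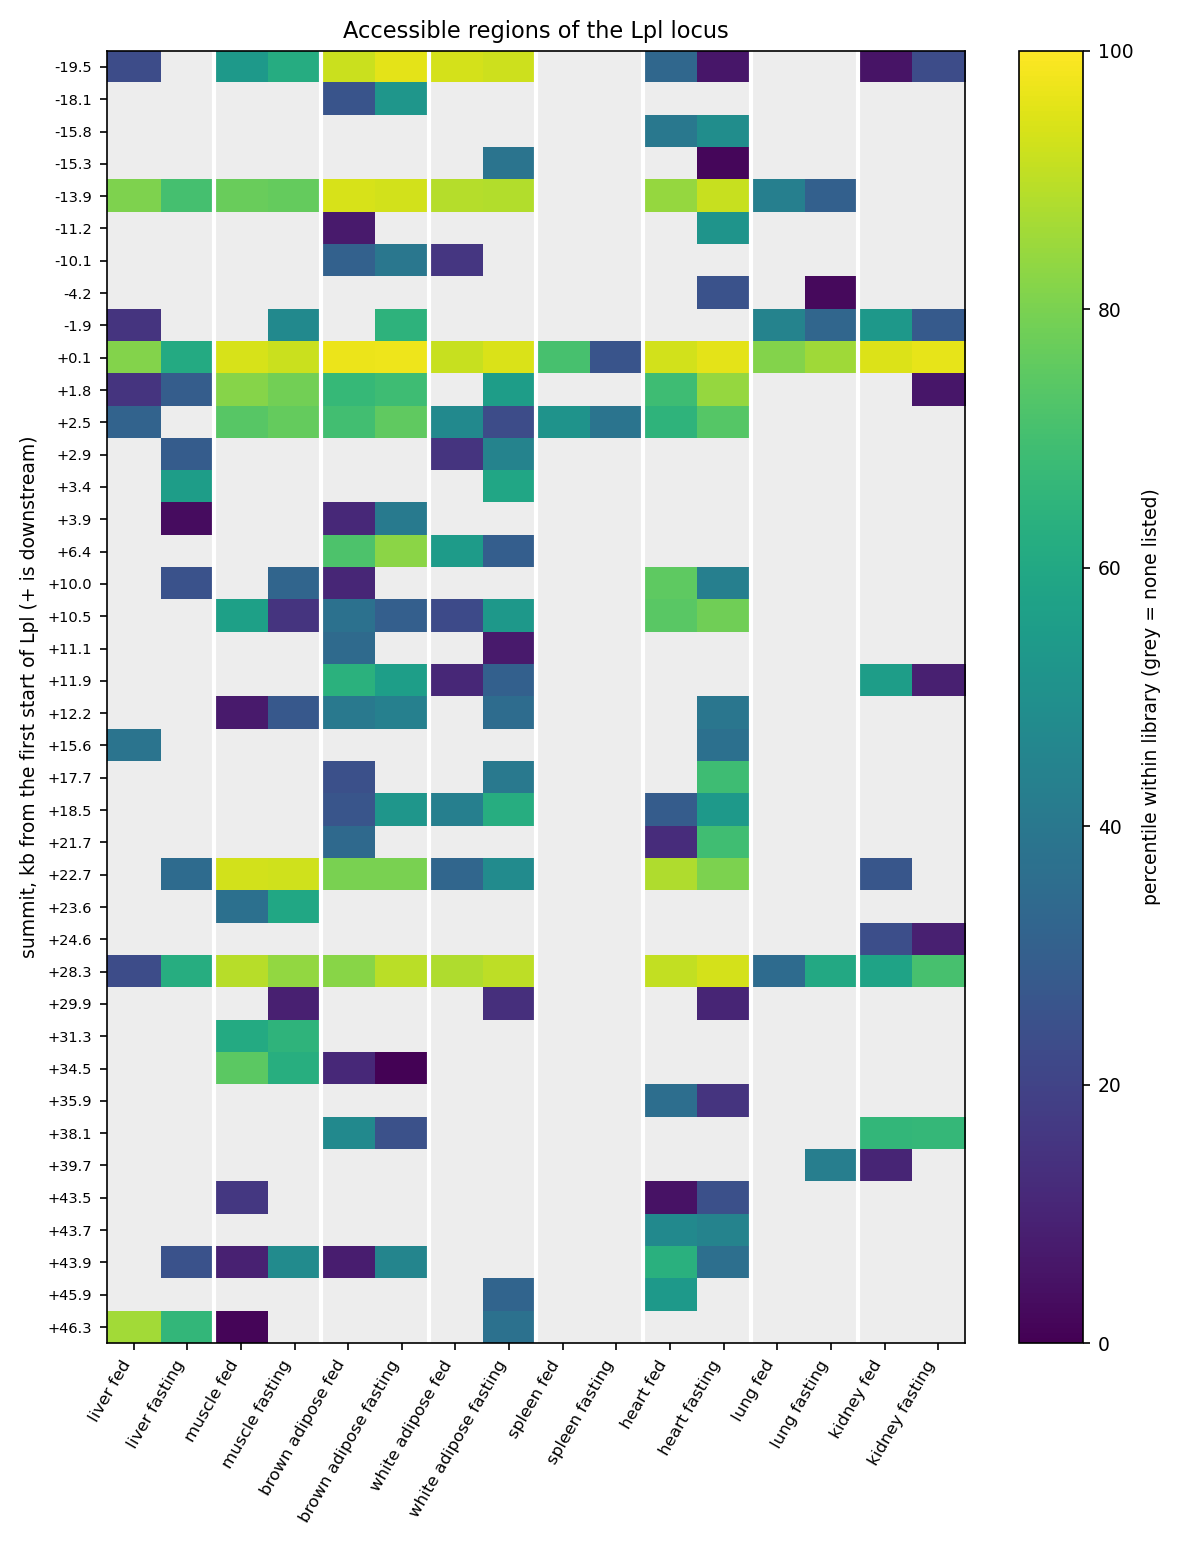
Accessible regions of the Lpl locus, 1 row per region ordered by the distance of its summit from the first start (y axis, kb) and 1 column per library, coloured by the percentile of the strongest peak, with grey where none was listed. The row at the start, +118 bp, is filled in all 16 libraries, and the rows upstream at region -13877 and downstream at +22715 and +28347 are filled in both states of muscle, heart and the fat depots.

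The 40 regions of the Lpl locus differed in the tissues that opened them. The region at the start, with its summit 118 bp downstream, was the only one listed in all 16 libraries. Region +22715, in an intron at chr8:68902807-68903379, reached 93.2 in fed and 92.9 in fasting muscle, 88.0 and 80.4 in heart, and 79.9 and 79.8 in brown adipose. White adipose had 33.2 and 48.1, fasting liver 35.0 and fed kidney 26.9, and neither state of spleen or lung listed the region. Region +1846, in an exon, was at 81.7 and 78.9 in muscle, 69.0 and 84.1 in heart, 67.2 and 69.1 in brown adipose and 14.9 and 29.4 in liver. The intronic region +10548 was at 74.2 and 78.4 in heart and 56.7 and 14.9 in muscle, and was listed in the fat depots but in none of the other 4 tissues.

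Further regions were picked after their values were seen, because they were among the strongest outside the start. Region -13877, upstream of the gene at chr8:68865936-68866925, stood at 94.1 in fed and 93.3 in fasting brown adipose, 88.8 and 88.4 in the white depot, and 84.1 and 91.5 in heart. Liver had 80.8 and 70.5, and muscle 77.3 and 76.4. Spleen and kidney did not list it, although the kidney promoter ranked high. Region -19500 leaned to fat, with 91.9 and 95.9 in brown and 93.5 and 92.4 in white adipose, against 53.8 and 62.0 in muscle. Region +28347, past the end of the gene at chr8:68907075-68909159, reached 91.0 and 93.7 in heart and 88.0 and 89.9 in white adipose, and was absent only from spleen. The 161 bases centred on the strongest summits of the upstream and the downstream region are given here because both regions were listed in each state of muscle, heart and the fat depots. Capitals mark CAGCTG, then the motif TGACTCA, then the CCAAT box read on the other strand.
Lpl -13877, chr8:68866534-68866694: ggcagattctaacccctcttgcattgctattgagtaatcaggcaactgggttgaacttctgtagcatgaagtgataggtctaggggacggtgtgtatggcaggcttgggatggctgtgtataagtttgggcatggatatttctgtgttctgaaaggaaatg
Lpl +28347, chr8:68908758-68908918: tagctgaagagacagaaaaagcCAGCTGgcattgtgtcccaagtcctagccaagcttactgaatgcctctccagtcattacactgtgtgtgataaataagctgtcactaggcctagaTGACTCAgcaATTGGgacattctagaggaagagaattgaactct

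The second sequence held 3 of the searched motifs. CAGCTG, the E-box form known from muscle regulatory factors, lay within 100 bp of the summit in 15.9% of all regions, TGACTCA, the AP-1 form, in 5.55% and CCAAT in 21.4%. The first held none of them.

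The Lpl promoter did not differ between the states in one direction. In fasting it was lower by 20.2 points in liver and by 32.3 in spleen, the tissues where it was weakest, and moved by less than 5 points in the other 6. In liver the strongest summits rested on 26 tags fed and 21 fasting and lay 987 bp apart. In fasting spleen the strongest summit rested on 14 tags and lay 2142 bp from the start, against 20 tags and 17 bp in the fed library. The mean over tissues was -5.27 points, though 5 of 8 were higher (two-sided exact permutation by sign flips, p = 0.477). The locus level was higher by a mean of 2.28 points (6 of 8 tissues, same exact test, p = 0.117). White adipose gave the largest locus difference, at 9.28 points, and 13 of the 21 regions listed there were at least 10 points higher in fasting and 3 at least 10 lower, where 37.9% of all regions were higher and 26.3% lower by as much.

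Gpihbp1 encodes the endothelial protein that captures the enzyme and carries it to the vessel lumen. It lies at chr15:75596628-75599481 on the plus strand. Its promoter was a weak one, listed in 14 of 16 libraries with a median level of 48.4. The level was 62.9 in fed and 85.7 in fasting heart, 71.7 and 72.1 in lung, and 50.7 and 76.1 in muscle. Brown adipose had 46.0 and 69.2, and white adipose 42.5 and 64.2. Liver was at 44.6 and 39.1, while spleen had no summit fed and 46.0 fasting, and kidney none fed and 33.8 fasting. Heart and lung led, and spleen and kidney came last.

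Muscle, heart, lung and both fat depots, whose capillaries are known to carry GPIHBP1, averaged 64.1 against 27.3 in liver, spleen and kidney. The tissue means over both states did not overlap, although single libraries did, with fed white adipose at 42.5 below fed liver at 44.6. The difference was 36.9 points (one-sided exact permutation test, p = 0.0179, 0.290 after adjustment over 19719 genes), and 10.8% of all promoters passed the same test. The tissue means of the locus level split the same way, at 27.5 against 13.8 (exact permutation test, p = 0.0179), again with single libraries overlapping, and 3.69% of loci passed. Capillary endothelial markers, namely Pecam1, Cdh5, Kdr, Tie1 and Emcn, averaged 89.2 and 91.4 in heart and 81.6 and 81.1 in lung and only 36.1 and 42.5 in kidney, but spleen, at 72.8 and 68.0, was above fed muscle at 50.6. Tie1, itself an endothelial receptor, also had the promoter most like that of Gpihbp1 across the 16 libraries (Pearson r = 0.85), followed by Ppp2r3d (0.85) and Ednra (0.84).

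The promoter of Gpihbp1 was higher in fasting in 7 of 8 tissues, by 20.96 ± 5.89 points (mean ± SE over 8 tissues), from 39.8 to 60.8. The largest differences were 46.0 in spleen and 33.8 in kidney, where no fed summit was listed and the fasting summits rested on 17 and 22 tags. The exact sign-flip permutation test gave p = 0.0234, and 0.821 after adjustment over 19719 genes, so it did not pass the correction. With only the 100000 strongest summits of each library the difference was 11.8 points (exact p = 0.125), and neither this nor the log2 tags over background passed. The latter, 0.40 (exact p = 0.125), rests on 6 tissues, since fed spleen and fed kidney had no summit. Without white adipose it was 20.9 points (exact p = 0.0469). Gpihbp1 was the only one of the 5 promoters called, and 5.25% of all promoters were. Within tissues, differences of at least 10 points were frequent in the whole table. At this size the strongest Gpihbp1 summit ranked higher in fasting muscle, brown adipose, white adipose, spleen, heart and kidney. In heart the fed and fasting summits lay 1787 bp apart. Together with the other 4 genes, 1 of 5 passed in liver against 25.3% of all promoters, 2 in muscle against 11.7%, 1 in brown adipose against 15.6%, 1 in white adipose against 18.7%, 2 in spleen against 19.1%, 2 in heart against 19.6%, none in lung against 12%, and 2 in kidney against 9.47%.

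In muscle, heart and both fat depots the strongest fasting summit lay upstream of the start. The region at the start, +11, was picked after its values were seen. It went from 48.8 to 69.0 in muscle and from 44.7 to 61.5 in brown adipose. White adipose had 14.1 and 15.1 there and lung 71.7 and 72.1, while heart fell from 62.9 to 47.3. Liver and kidney listed it in fasting alone, at 37.3 and 33.8, and spleen in neither state. Region -1764, at chr15:75594578-75595162 and picked after its values were seen, went from 50.7 to 76.1 in muscle, from 46.0 to 69.2 in brown adipose, from 42.5 to 64.2 in white adipose, from 13.7 to 85.7 in heart and from no peak to 69.9 in lung. It went from 44.6 to 5.47 in liver and was not listed in spleen or kidney. The summit held 30 tags in fed and 114 in fasting muscle, a log2 ratio over background of 1.20 (95% interval 0.61 to 1.83), and 25 and 63 tags in heart, a ratio of 1.09 (0.40 to 1.82). These intervals, like the others below, cover counting error only. Over all promoters the median ratio was -0.02 in muscle and -0.26 in heart. The tags come from the same columns as the percentiles and add no independent evidence. In brown adipose the ratio was -0.07 (-0.61 to 0.45) where the median of all promoters was -0.87, and in white adipose 0.29 (-0.38 to 0.94) against -0.38. Its 161 central bases are given because this is where the states differed, and none of the searched motifs was in them.
Gpihbp1 -1764, chr15:75594784-75594944: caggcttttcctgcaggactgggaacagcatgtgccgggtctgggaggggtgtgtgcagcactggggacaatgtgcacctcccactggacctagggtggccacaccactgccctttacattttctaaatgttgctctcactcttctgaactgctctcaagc

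The mean level of the 5 endothelial markers moved with the gene in several tissues. Their mean went from 50.6 to 72.6 in muscle, 50.6 to 58.1 in brown adipose, 50.8 to 58.8 in white adipose and 36.1 to 42.5 in kidney, changed little in heart and lung, and was lower in fasting liver, at 63.5 against 65.5, and in fasting spleen. In muscle and kidney all 5 markers were higher in fasting, and in brown adipose only Kdr fell, from 65.0 to 61.1. The white adipose mean rested largely on Pecam1, which went from 35.3 to 72.6. There Tie1 (65.0 to 67.1) and Emcn (4.25 to 10.2) rose less, and Cdh5 (69.7 to 65.1) and Kdr (79.6 to 78.9) fell. All 5 markers were listed in every library except fasting spleen, which lacked Emcn. Their part in the Gpihbp1 difference was not tested.

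Other regions of the locus behaved differently. Region -9068 was listed in all 16 libraries and was lower in fasting in 6 of 8 tissues, for example 60.1 to 26.9 in brown adipose and 51.8 to 23.1 in muscle, with heart opposite at 59.7 to 88.8 and lung at 70.7 to 74.8. It rested on few tags, with 93 and 18 in brown adipose (log2 ratio -1.45, -2.27 to -0.71) and 27 and 31 in muscle (-0.53, -1.32 to 0.27). In no tissue did the interval lie below the median of all promoters, and in heart alone it lay above. Region -18445 was a fat region, at 64.5 and 20.01 in brown and 67.5 and 18.7 in white adipose, and otherwise only in fed spleen, at 35.5. Region +1878 was faint, with 36.7 and 43.1 in brown adipose and 20.6 and 10.4 in muscle. Heart listed it in the fed state only, at 51.4, and white adipose in fasting only, at 43.2. The highest levels of +3668 were in heart, at 46.1 and 78.3, and lung, at 50.4 and 65.4. Region +19873 stood between 99.2 and 99.9 everywhere, but it is nearest the start of Zfp41 and belongs to the interval only by distance. The mean of the 17 regions was higher in fasting by 1.78 ± 0.75 points (6 of 8 tissues, two-sided exact permutation of signs, p = 0.0469). That call was lost in 6 of the 8 repeats that left out 1 tissue, with differences between 1.30 and 1.98 points, so the locus call depends on which tissues are used. The 12 regions nearest to a start of Gpihbp1 were higher by 4.09 points in 7 of 8 tissues, and the 5 nearest to another gene differed by -3.75.

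Lmf1 encodes the membrane chaperone without which lipase stays misfolded in the endoplasmic reticulum. It spans chr17:25579085-25662826 on the plus strand. Its promoter ranked high among all summits of every library, with a level between 97.6 in fed liver and 99.3 in fasting lung. The fed and fasting means were 98.7 and 98.6 (exact sign-flip permutation test, p = 0.688), and the largest difference within a tissue was 0.83 points, lower in fasting heart. The RefSeq promoter table held 2 of the 5 genes, Lmf1 and Angptl8. The stretch of Lmf1 from 250 to 90 bases before its RefSeq start is shown because this promoter was open everywhere. It held the GC box GGGCGG, in capitals and read on the other strand, as 32.7% of the 32851 RefSeq promoters do in the 250 bases before their start.
Lmf1 promoter, GRCm38.p6 chr17:25578924-25579084, plus strand: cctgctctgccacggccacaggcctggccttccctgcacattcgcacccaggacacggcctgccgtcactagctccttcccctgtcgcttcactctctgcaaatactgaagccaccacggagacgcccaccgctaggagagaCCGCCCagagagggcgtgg

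Behind this uniform start the gene body varied by tissue. Region +13437, intronic, was at 98.2 in fed and 97.6 in fasting muscle, close to the promoter itself, with 321 and 500 tags. Heart came next at 73.2 and 82.5, and lung and kidney did not list it. Region +55236 was open in muscle, at 93.9 and 94.2, in brown adipose, at 85.2 and 84.4, and in heart, at 83.2 and 72.5. White adipose had 63.5 and 66.2, and the region was listed in no other tissue. Region +63102 reached 64.6 and 91.0 in muscle, 84.7 and 95.7 in white adipose, and 78.3 and 77.3 in heart. In muscle its summit held 36 tags fed and 229 fasting. The start nearest to this region is that of another gene, Gm22645. Region +16578, picked after its values were seen, was highest in liver, at 87.5 and 93.0, and was listed in 12 libraries, among them muscle at 55.1 and 40.01 and kidney at 41.4 and 56.4. The sequence around +63102 is shown because it held a match to the glucocorticoid response element and one to TGACTCA, both in capitals, the latter read on the other strand. The former, 2 inverted copies of AGAACA separated by 3 bases, was searched with up to 2 mismatches, and 2.10% of all regions hold it.
Lmf1 +63102, chr17:25642107-25642267: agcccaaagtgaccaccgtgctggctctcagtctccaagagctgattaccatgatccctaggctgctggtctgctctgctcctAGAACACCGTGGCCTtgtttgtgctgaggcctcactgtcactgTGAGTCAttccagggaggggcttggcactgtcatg

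Over its 46 regions the Lmf1 locus was highest in muscle, at 23.6 fed and 25.7 fasting, and lowest in lung, at 7.10 and 6.16. The mean over tissues differed by 0.59 points between the states (exact sign-flip permutation test, p = 0.484). Of the regions, 21 were nearest to the start of another gene.

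Angptl4 encodes the inhibitor that unfolds lipoprotein lipase. It lies at chr17:33773750-33781830 on the minus strand. Its promoter was listed in every library, and the order of tissues was flat. The level was 92.9 in fed and 92.7 in fasting heart, 93.2 and 92.0 in spleen, and 90.0 and 92.8 in muscle. Liver stood at 86.3 and 95.8, white adipose at 89.0 and 91.8, and brown adipose at 86.2 and 91.7. The last were 85.4 and 89.7 in kidney and 88.2 and 82.9 in lung. Liver and both fat depots, textbook sources of the protein, averaged 90.1 and the other 5 tissues 89.99 (one-sided exact permutation test, p = 0.5). Fasting was higher in 5 of 8 tissues by a mean of 2.27 points (exact sign-flip permutation test, p = 0.188), with liver the largest, at 9.47. The fed and fasting summits lay 1881 bp apart in liver, 1866 in muscle and 1697 in kidney. At the region of the start, +345, 4 tissues were higher in fasting and 4 lower. Liver went from 76.8 to 95.8 there and kidney from 85.4 to 78.8.

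The locus as a whole passed the test between the states before adjustment, though not after it. Its level went from 25.2 to 39.6 in white adipose, 17.7 to 31.1 in heart, 37.7 to 47.5 in brown adipose and 26.1 to 35.1 in liver. Smaller steps were seen in kidney, 27.3 to 34.5, muscle, 30.7 to 35.2, and lung, 17.5 to 19.9, and spleen went from 12.1 to 11.3. It was thus higher in fasting in 7 of 8 tissues, and spleen, where the locus was least open, was the exception. The mean difference was 7.502 ± 1.863 points (SE over 8 tissues, exact sign-flip permutation test, p = 0.0156, 0.587 after adjustment over 19347 genes). Angptl4 and Gpihbp1 were the 2 of 5 loci called, where 7.12% of all loci were, and the median difference over all loci was -0.12. Leaving out 1 tissue at a time kept the difference between 6.51, without white adipose, and 8.69, without spleen, with p no higher than 0.0313. Ranking the same peaks by fold enrichment in place of p gave 2.75 points (exact p = 0.211), so the call depends on that choice. In heart, macrophage markers also went from a mean of 18.7 fed to 42.4 fasting, and their part in the Angptl4 difference was not tested.

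**Figure D3:**
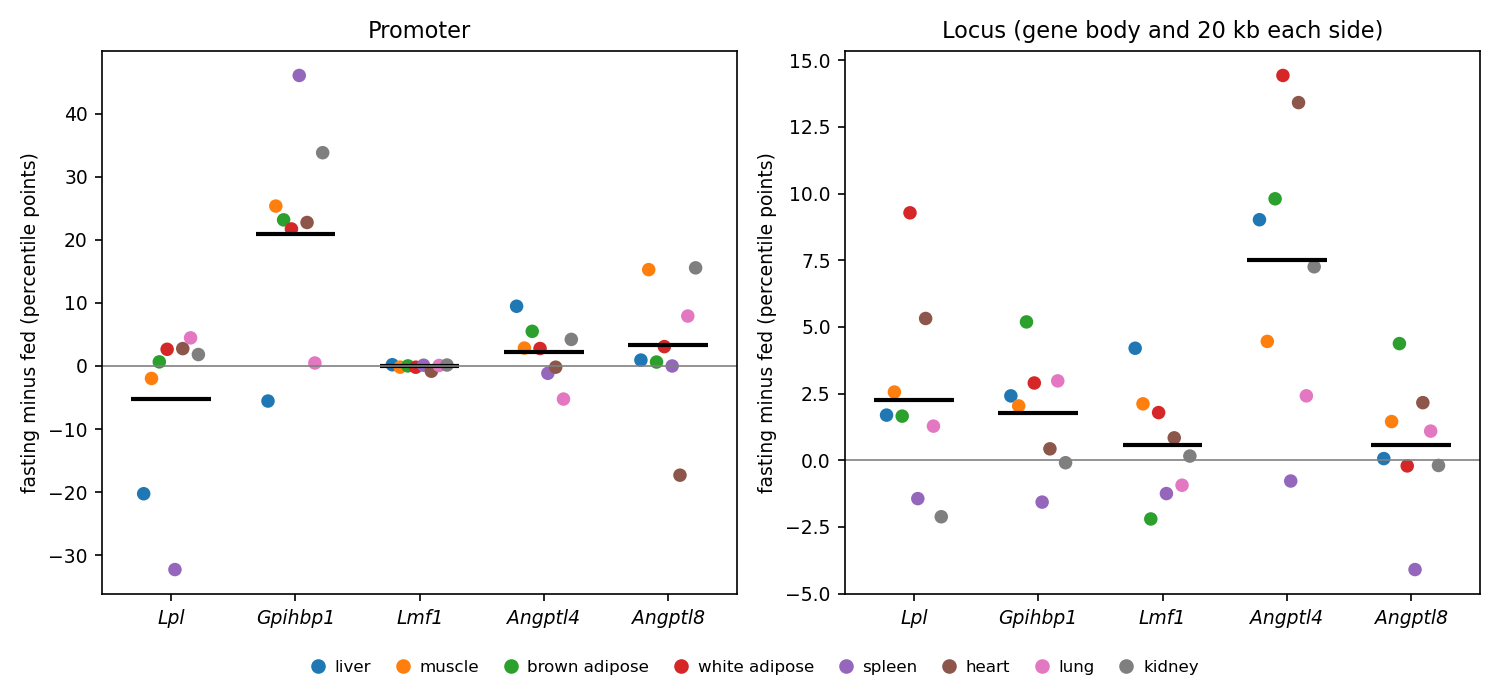
Fasting minus fed difference of the promoter level (left) and of the locus level (right) in percentile points, with 1 coloured point per tissue and a black bar for the mean over 8 tissues. Gpihbp1 promoters lay above 0 in 7 tissues with a mean of 20.96, and Angptl4 loci lay above 0 in 7 tissues with a mean of 7.502.

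Counted by region, more were at least 10 points higher than lower in every tissue. At least 10 points higher in fasting were 8 of 15 listed regions in liver, where 32% of all regions were, 6 of 13 in muscle (25.5%), 8 of 19 in brown adipose (29.1%), 12 of 17 in white adipose (37.9%), 2 of 5 in spleen (27.8%), 7 of 11 in heart (33.7%), 4 of 11 in lung (23.3%) and 5 of 14 in kidney (23.1%). Regions at least 10 points lower numbered 4, 2, 2, 1, 1, 0, 1 and 1 in that order. Of all regions 31.7%, 26.8%, 23.9%, 26.3%, 33.0%, 31.3%, 29.9% and 19.5% were lower by as much. The 11 regions nearest to a start of Angptl4 itself were higher by a mean of 9.80 points, in 6 of 8 tissues, by 23.7 in liver and 16.6 in brown adipose, and the 14 nearest to another gene's start by 5.70, in 7 of 8. Heart and white adipose differed as much outside the gene as within it, at 14.6 and 14.8 points.

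**Figure D4:**
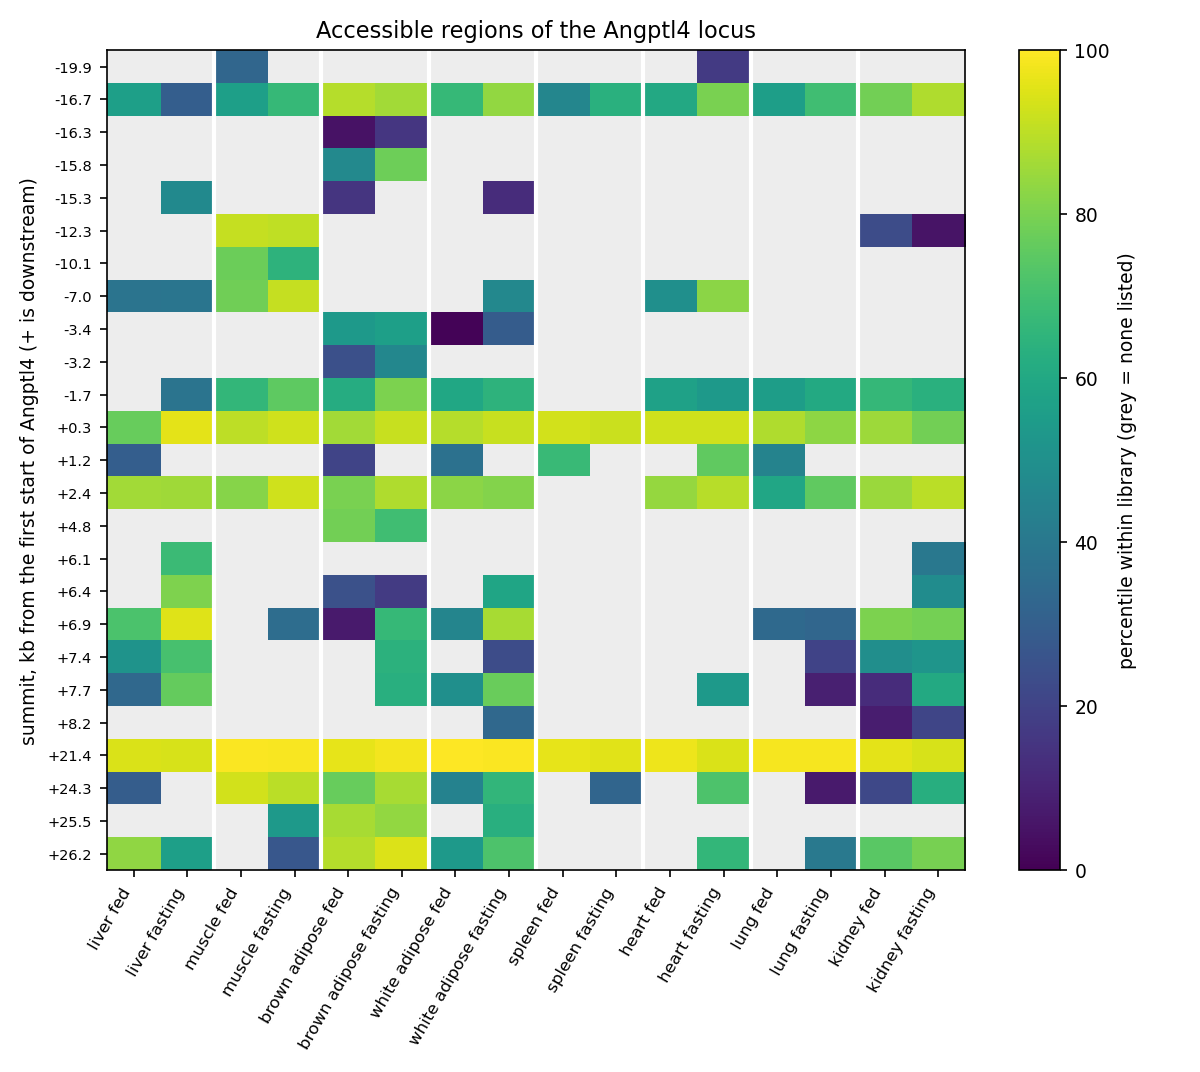
Accessible regions of the Angptl4 locus, 1 row per region by the distance of its summit from the first start (y axis, kb, positive into the gene and beyond) and 1 column per library, coloured by percentile, grey where no peak was listed. The rows of regions +6057 to +7661 are mostly brighter in fasting than in fed liver, brown adipose and white adipose.

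Several regions lay in the 3′ part of the gene. Region +6854, annotated as UTR at chr17:33774549-33775206 and picked after its values were seen, went from 71.9 to 94.9 in liver, from 45.7 to 87.0 in white adipose and from 7.18 to 67.1 in brown adipose, and was nearly level in kidney, at 80.4 and 79.0, and in lung, at 34.1 and 32.9. Muscle listed it in fasting alone, at 35.8. Its summit held 29 tags in fed and 151 in fasting liver, a log2 ratio of 2.37 (1.789 to 2.997) where the median of all liver promoters was 0.84. In white adipose the counts were 96 and 132, a ratio of 1.23 (0.84 to 1.63) against a median of -0.38. In brown adipose the ratio was -0.32 (-0.68 to 0.03) against -0.87, so the rank was higher there while the tags over background were not. Region +6854 held a match to the glucocorticoid response element within 100 bp of its summit, as 2.10% of all regions do.

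Region +7661, at the 3′ end, went from 33.7 to 76.3 in liver, from 49.9 to 77.2 in white adipose and from 12.5 to 60.6 in kidney. Brown adipose, heart and lung listed it in fasting alone, at 63.3, 53.8 and 8.74, and muscle and spleen never. It was higher in fasting in each of the 6 tissues that listed it. The intronic region +2421, picked after its values were seen, was more even, at 86.3 and 85.6 in liver, 82.7 and 81.5 in white adipose and 81.9 and 92.8 in muscle. Muscle tags there went from 107 to 472, a log2 ratio of 1.42 (1.11 to 1.73) where the median of all promoters was -0.02. In brown adipose they went from 663 to 197, a ratio of -0.83 (-1.07 to -0.60) against a median of -0.87. That interval held the median, and the percentile of the region was higher in fasting than in fed brown adipose. At the start itself, region +345, the liver percentile was 76.8 fed and 95.8 fasting, with 34 and 149 tags.

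A pair of sites in the gene body resemble DR1, 2 copies of AGGTCA 1 base apart that PPAR and other nuclear receptors are known to bind, with at most 1 mismatch. Of all 21938 genes, 2.01% hold at least 2 such sites in the 8081 bp after their start, the length of Angptl4, and 16.01% hold at least 1. They are shown whole, 5′ to 3′ on the strand that matches.
Angptl4 intron, chr17:33775775-33775787, plus strand: AGGTCAGAGGACA
Angptl4 UTR, chr17:33774404-33774416, minus strand: AGGTCAAAGGACA

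A peak covered the intronic site in 2 libraries, fasting liver and fasting kidney, and in no fed library. The other was covered in 7, namely both states of liver and kidney and the fasting libraries of brown adipose, white adipose and lung. With up to 2 mismatches, DR1 also lay within 100 bp of the summit of Gpihbp1 region -18445, as in 4.80% of all regions. A match of letters is a description and does not show that a factor was bound. The intronic region +2421 held CCAAT at 2 places, in capitals.
Angptl4 +2421, chr17:33779329-33779489: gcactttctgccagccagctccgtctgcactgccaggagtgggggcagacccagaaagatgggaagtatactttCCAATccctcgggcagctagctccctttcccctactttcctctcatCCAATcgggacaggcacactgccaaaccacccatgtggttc

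Beyond the gene, region +21387 lay at the start of Rab11b and stood between 93.9 and 99.7 in all 16 libraries, lower in fasting in 7 of 8 tissues by a mean of 0.66 points. Regions +24338 and +26180, in introns of Rab11b, were strongest in muscle, at 93.3 and 89.8 for the former, and in brown adipose, at 88.8 and 94.7 for the latter. In heart both were listed in fasting alone, at 72.0 and 66.4. Region -16712, upstream and nearest to Kank3, was present in every library and higher in fasting in 6 of 8 tissues, for example from 66.9 to 83.9 in white adipose. Across tissues, liver and the fat depots averaged 35.2 at the locus and the other 5 tissues 23.7, a difference of 11.5 points (one-sided exact permutation test, p = 0.0893).

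Angptl8 encodes a small secreted protein that restrains lipoprotein lipase. It lies at chr9:21835510-21837347 on the plus strand, inside Dock6, which runs the other way, and 16 of the 22 regions of its locus lie nearest to a start of another gene. Its promoter was the most selective of the 5, listed in 13 libraries. Liver led, at 91.6 fed and 92.6 fasting, followed by 87.5 and 88.1 in the brown and 84.2 and 87.3 in the white depot, 73.5 and 89.0 in kidney, and 68.9 and 76.8 in lung. Muscle was at 13.04 and 28.3, heart at 17.3 and 0, and spleen had no summit in either state. In muscle the summit rested on 20 and 37 tags, so the low levels there are near the limit of the list.

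Liver and both fat depots averaged 88.6 against 36.7 in the other 5 tissues, and the tissue means over both states did not overlap (difference 51.9 points, one-sided exact permutation test, p = 0.0179, 1 after adjustment over 19719 genes). Of all promoters 2.31% passed this test. The locus level was 35.6 and 35.7 in liver, 26.8 and 31.2 in the brown depot and 23.7 and 23.5 in the white, with a mean of 29.4 against 19.2 elsewhere (exact permutation test, p = 0.0179), and 4.76% of loci passed. Angptl4, tested on the same tissues, passed neither at its promoter nor at its locus. Fasting kidney, at 89.0, was above both fat depots, and fed kidney, at 73.5, below them. Adipocyte markers, namely Adipoq, Plin1, Cidec, Lep and Retn, averaged 88.6 to 93.6 in the fat depots, 49.9 and 57.5 in liver, 32.6 and 37.2 in kidney and 34.1 and 33.96 in lung. They averaged 50.5 and 62.7 in spleen, where Angptl8 was not listed.

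The 250 bases before the start are given because this promoter separates the tissues. The only searched motif in them was CAGCTG, in capitals, which 13.001% of RefSeq promoters hold.
Angptl8 promoter, GRCm38.p6 chr9:21835260-21835509, plus strand: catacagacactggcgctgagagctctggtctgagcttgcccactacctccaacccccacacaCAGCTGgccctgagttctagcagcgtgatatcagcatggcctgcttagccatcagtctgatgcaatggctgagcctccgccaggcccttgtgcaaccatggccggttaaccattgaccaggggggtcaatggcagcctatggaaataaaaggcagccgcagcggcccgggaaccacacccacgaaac

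Upstream, 3 regions were the strongest of those found in few tissues. Region -3813 was at 85.9 and 83.5 in liver, 89.6 and 88.0 in the brown and 62.7 and 87.4 in the white depot, and otherwise only in fed heart, at 28.3. Region -4456, over a coding exon of Dock6, was at 92.1 and 89.2 in liver, 87.0 and 69.9 in brown adipose, 7.72 and 44.0 in white adipose and 72.6 and 87.6 in kidney. Region -4818 was at 72.7 and 71.5 in liver, 52.9 and 70.6 in white adipose and 41.9 and 16.6 in brown adipose. Muscle, spleen and lung listed none of these regions. Region +17124, the start of Dock6, was by contrast open in all 16 libraries at 80.2 to 97.4.

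**Figure D5:**
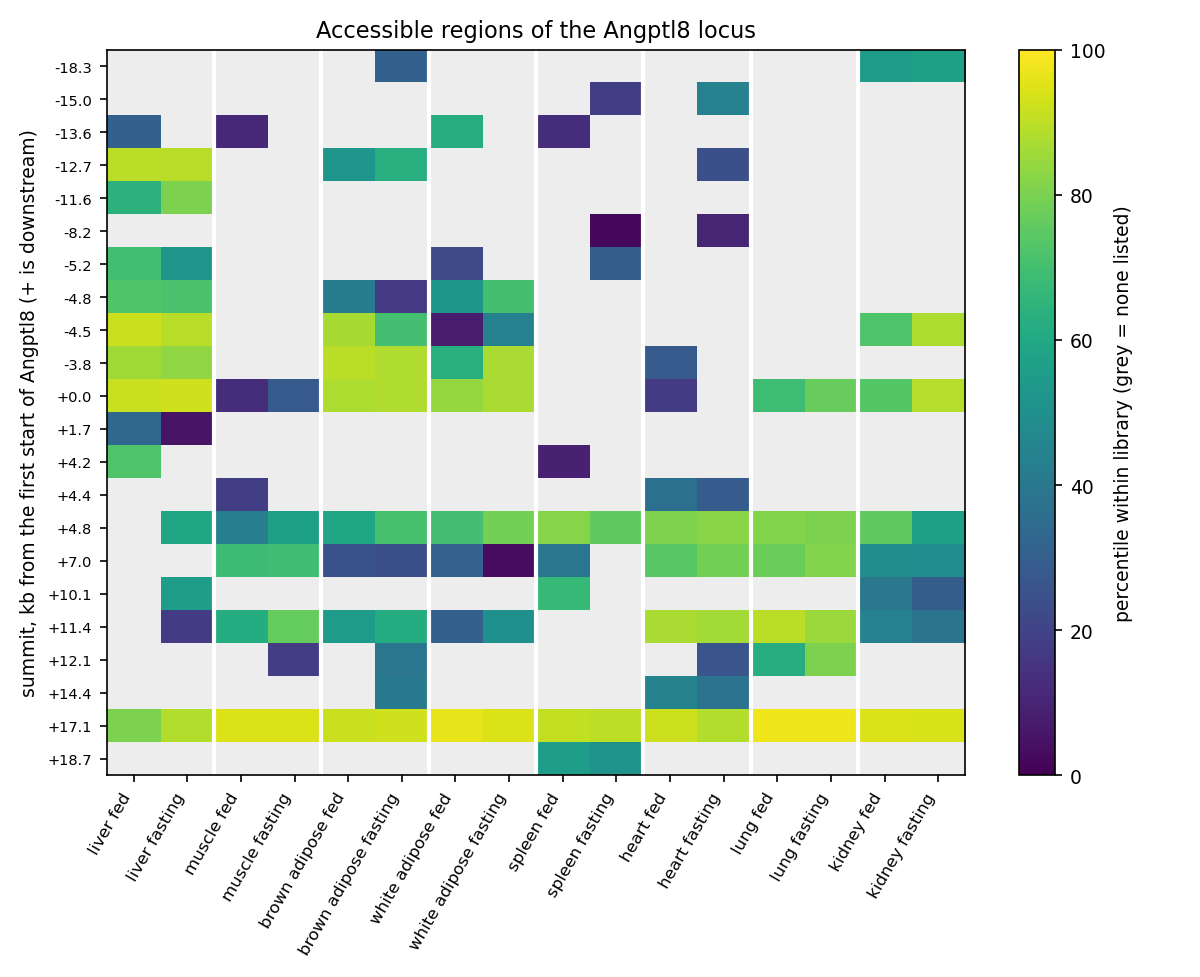
Accessible regions of the Angptl8 locus, 1 row per region by the distance of its summit from the start (y axis, kb) and 1 column per library, coloured by percentile, grey where no peak was listed. The rows of regions -4818 to -3813 are filled in liver and the fat depots, and the row of region +17124, the start of Dock6, is filled in all 16 libraries.

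The Angptl8 promoter was higher in fasting in 6 of 8 tissues, by a mean of 3.26 points that the exact sign-flip permutation test did not separate from 0 (p = 0.391). Kidney, at 15.6 points, and muscle, at 15.3, were past 10 points higher, and heart fell by 17.3. In kidney the tags went from 86 to 157, a log2 ratio of 0.88 (0.49 to 1.28) against a median of -0.04. In brown adipose they went from 582 to 127, a ratio of -1.28 (-1.567 to -0.9996) where the median was -0.87. The rank was slightly higher in that tissue while the ratio lay below the median of all promoters. At the locus the mean difference was 0.58 points (exact sign-flip permutation test, p = 0.508).

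Whether fasting acted differently in the tissues named for a gene and in the others was tested for Lpl, Gpihbp1, Angptl4 and Angptl8, a comparison chosen after the values were seen. None of the 8 differences passed, the smallest exact permutation p being 0.0571 for the Lpl locus, where the named tissues differed by 4.70 points and the others by -0.15.

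The wider pathway was read at 24 further genes. Lipc, the hepatic lipase, was absent from both states of 6 tissues and stood at 85.2 and 58.5 in liver and at 32.1 in fasting heart. Apoa5, an activator of lipolysis, was also absent from 6 tissues and stood at 89.6 and 87.8 in liver and at 55.0 in fed spleen. No gene of the list moved past 10 points in the same direction in 4 or more tissues. Between 0 and 3 of the 24 were at least 10 points higher in fasting and between 0 and 5 at least 10 lower in a tissue, with 3 and 5 of the 23 listed in spleen, where 19.1% of all promoters differed by as much in either direction, and 3 and 4 of the 23 in heart, where 19.6% did. In liver 1 and 1 of 24 did, against 25.3%. Median differences of the list ran from -1.74 in spleen to 1.03 in white adipose.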

How the data were processed

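Peak lists of 16 ATAC-seq libraries were used. Per the labels and the study's methods, the authors trimmed adapters, aligned reads to GRCm38 with Bowtie2, removed duplicates and called peaks with MACS2, with versions not given in the sources used here. The deposited columns used were fold enrichment, a linear ratio, and the -log10 p-value and -log10 q-value of each summit. The lists have nearly one length, so weak rows differ in strength between libraries. Every row was ranked within its library by -log10 p. Tags at a summit were solved from fold and p, with 98.2% to 100% of the rows tried giving whole numbers (tolerance 0.001), and are given with exact 95% Poisson or binomial intervals, and background tags per library stand in for depth.

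Starts came from GENCODE vM21, and all peak ends lay within GRCm38 chromosomes. Fasting was compared with fed by an exact sign-flip permutation test over 8 tissues (256 sign patterns), and tissues by exact permutation over the 70 or 56 choices, for every protein-coding gene with Benjamini-Hochberg adjustment. The tests were also run on these levels with random signs or shuffled tissues and known shifts added to some genes. Motifs were searched on both strands within 100 bp of each region's strongest summit for the E-box CACGTG, the E-box form CAGCTG, the CCAAT box, the GC box GGGCGG, the AP-1 form TGACTCA, and DR1 and the glucocorticoid response element with up to 2 mismatches. In promoters the TATA box TATAAA and the octamer ATTTGCAT were added, without the last 3. Python 3.11.15 with scipy 1.17.1, pandas 2.3.3 and pysam 0.24.0 was used. Named regions were those listed in all 16 libraries, and up to 3 per locus of highest mean percentile among those listed in both states of at most 4 tissues. Members, lists and tests were chosen with earlier results of these data known. A gene of the pathway list that the naming rule covers is not reported here.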

Additional observations from a re-analysis of the deposited data

How the results depend on the processing

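Of 266 recomputed values over 18 results, 230 kept direction and side of the threshold, 17 no longer passed, 9 newly passed and 10 changed sign. With 1 pooled library per tissue and state, no result has a replicate check, and no member passed adjustment over all genes. Fed and fasting were paired by tissue throughout. Animals could not be paired, because the labels carry no replicate numbers beyond 1 per group. The cause of the changes below was not tested.

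With only the 100000 strongest rows of each library, calls were lost for the Gpihbp1 promoter between states (11.8 points) and between tissues (12.5), the Gpihbp1 locus between tissues (6.10) and the Angptl8 locus between tissues (10.5). Ranking by fold enrichment took away the Angptl8 promoter call between tissues (38.0) and the locus calls between states of Gpihbp1 (0.83) and Angptl4 (2.75), turned the promoter differences between states of Lmf1 (0.45) and Angptl4 (-0.13) and between tissues of Angptl4 (-11.7), and brought the Angptl8 promoter past the threshold (8.99). That promoter also passed with rows of q under 0.01 (5.42) or 1e-06 (7.05). One row per region made the Lpl promoter pass between tissues (15.5) and turned Angptl4 (-0.048). The 1000 bp window took away the Gpihbp1 promoter between tissues (31.2), as did log2 tags over background between states (0.40, over the 6 tissues with a summit in both). The Gpihbp1 locus between states was lost with a 50000 bp extension (0.46) and with summits joined within 150 bp (0.97). The Angptl8 locus between states turned at 10000 bp (-0.57) and 50000 bp (-0.15), and the Angptl4 locus between tissues passed at both (13.98 and 8.45).

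Leaving out 1 tissue at a time gave -6.66 to -1.41 points for the Lpl promoter between states, 17.4 to 24.8 for Gpihbp1, -0.12 to 0.026 for Lmf1, which turned without heart, 1.24 to 3.34 for Angptl4 and 1.499 to 6.19 for Angptl8, which passed without heart. Between tissues it gave 10.97 to 24.6 for the Lpl promoter, which passed without kidney, 31.7 to 44.2 for Gpihbp1, -0.97 to 0.85 for Angptl4, which turned without liver, lung or kidney, and 42.7 to 63.0 for Angptl8. For loci between states it gave 1.28 to 2.90 for Lpl, which passed without kidney, 1.30 to 2.26 for Gpihbp1, which was lost without liver, muscle, brown adipose, white adipose, heart or lung, 0.07 to 0.99 for Lmf1, 6.51 to 8.69 for Angptl4 and 0.04 to 1.25 for Angptl8. For loci between tissues it gave 15.6 to 18.5 for Lpl, 11.7 to 16.5 for Gpihbp1, 7.78 to 13.8 for Angptl4 and 7.05 to 13.1 for Angptl8.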

Other observations

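The promoters most like that of each gene across the 16 libraries, by Pearson r of the percentile and given as a description over libraries that share animals and list length, were Hcn4 (0.97), Ammecr1l (0.96) and Zfp503 (0.95) for Lpl, Nxt2 (0.93), Exog (0.93) and Soat1 (0.92) for Lmf1, and Ankrd39 (0.81), Col20a1 (0.78) and Rps15 (0.68) for Angptl4. For Angptl8 they were Aldh1a7 (0.98), Fmo4 (0.96) and C1rl (0.95).

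Macrophage markers, namely Adgre1, Csf1r, Cd68, Itgam and Marco, averaged 81.9 in fed and 73.5 in fasting spleen, the tissue where the Lpl locus was least open, and 61.1 and 54.3 in white adipose. In muscle, where adipocyte markers fell from a mean of 27.8 fed to 13.9 fasting with Lep and Retn at 0 in both, the Lpl promoter differed by -1.98 points.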
